A study of Drosophila melanogaster with 8 samples.

Results

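The mitochondrial ribosomal protein genes are the nuclear genes whose symbols begin with mRpL or mRpS and a number, for the large and the small subunit of the ribosome inside mitochondria. Symbols were matched in the authors' expression table, and 73 of its 13656 genes were members. By symbol, 47 belong to the large and 26 to the small subunit. They hold 94 of the 26309 listed transcripts. The choice used names only, not expression values.

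Mitochondria keep a small genome that encodes core subunits of the respiratory chain and the ATP synthase. Those subunits are made by the mitochondrial ribosome, whose RNAs come from that genome and whose proteins are all encoded in the nucleus, translated in the cytosol and imported. Many of the proteins descend from bacterial ribosomal proteins, and others exist in mitochondria only. In flies, a mutation of the small subunit gene tko causes seizures after mechanical shock, and neurons depend on the respiratory chain for much of their energy.

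RNA from heads of female Drosophila melanogaster aged 5 days was sequenced in 4 genotypes, each a transgene driven by Elav, a promoter active in neurons throughout the nervous system. Elav>PA36, the control in the labels, encodes a proline-alanine dipeptide repeat. Elav>PR36 encodes a proline-arginine repeat, and Elav>(G4C2)36 expresses repeats of GGGGCC, the hexanucleotide whose expansion in the gene C9orf72 causes inherited forms of motor neuron disease and dementia. Elav>UPF1 RNAi targets the mRNA of Upf1, a helicase needed for nonsense-mediated mRNA decay, the pathway that degrades mRNAs with premature stop codons. Per the labels, flies were kept at 24 °C and 60% humidity with 12 h of light and 12 h of dark, and 40 heads per genotype in total went into its replicates. PA36, PR36 and (G4C2)36 are each represented by 2 libraries and UPF1 RNAi by 1. A further UPF1 RNAi library is not analysed here. All 4 genotypes carry the Elav driver, whole heads were sequenced, and a driver active in neurons changes part of the cells that gave the RNA. In such bulk samples, fewer cells of a type and less RNA per cell cannot be told apart. The labels do not say whether replicates were separate cultures, so the spread behind every p-value may be technical.

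Values are TPM, a length-normalized share of sequenced transcripts, so levels of different genes can be set side by side. Summed over all transcripts in the table, a library reached 712972 to 877933 TPM. TPM keep no depth, so depth is unknown and no counting interval is given. Head markers were above 0 in every library: elav, the neuronal RNA-binding protein that gives the driver its name, lay between 31.0 and 62.1 TPM, the rhodopsin ninaE between 21034 and 30990 TPM and the glial factor repo between 21.4 and 31.8 TPM. A pair of synaptic genes was near 0 in 1 library each: Syx1A, of vesicle fusion, was at 0.34 TPM in PA36 replicate 1 against 40.6 to 98.4 TPM elsewhere, and brp, of the active zone, at 0.13 TPM in PR36 replicate 1 against 8.32 to 18.9 TPM elsewhere. Summed TPM of 11 heat shock genes was 5286 in PA36 replicate 1 and 6760 in PR36 replicate 1, against 87.3 to 504 in the other 5 libraries. These 2 libraries stand apart. The medians of the members and of all genes against PA36 are also given without both of them. So are the fold changes of mRpS30, mRpL10 and mRpL28. Other fold changes and medians against PA36 rest on these libraries and are not given without both. Upf1 itself was at 10.3 and 19.1 TPM in PA36, 18.6 and 19.6 in PR36, 18.2 and 16.02 in (G4C2)36 and 11.3 in UPF1 RNAi. The RNAi library was therefore lower than 5 libraries but not than PA36 replicate 1 (log2 fold change against PA36 -0.29, SE 0.37, adjusted p = 0.96, limma).

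All 73 members were detected in every library, and all passed the level required for testing, a 7-library mean of 1 TPM or more. They were expressed at an even, modest level. The median member had a mean of 26.6 TPM, against 18.7 TPM for the median of all 9287 genes tested. In 56 members the mean lay between 20 and 50 TPM, in 12 below 20 TPM and in 5 above 50 TPM. The medians of the subunits lay close together, at 27.4 TPM for the large and 26.5 TPM for the small subunit. Proteins of the cytosolic ribosome had a median mean of 1798 TPM over 80 tested genes, and 63 tested nuclear genes of the respiratory chain and ATP synthase had 303 TPM.

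The highest member was mRpS9, whose bacterial counterpart reaches the peptidyl-tRNA site of the small subunit. It was at 98.5 and 99.6 TPM in PA36, 97.9 and 111 in PR36, 125 and 93.1 in (G4C2)36 and 73.8 in UPF1 RNAi. The UPF1 RNAi library was lowest and the other genotypes overlapped. Next came mRpS5, a small subunit protein related to bacterial S5, with a mean of 75.1 TPM, and mRpL28, related to bacterial L28, with 72.9 TPM. The lowest were mRpL34 with 6.01, mRpL53 with 7.85 and mRpL33 with 10.3 TPM. mRpL34 and mRpL33 have bacterial counterparts and encode some of the smallest members, of 81 and 64 residues. mRpL53 belongs to the proteins found in mitochondria only. Its level rests on how reads were split between it and a transcript of CG33155 with the same exons. The 2 entries together had 38.5 to 60.8 TPM in the libraries. Over the 72 members found by identifier in the reference annotation, proteins ranged from 64 residues in mRpL33 to 557 in mRpS30.

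**Figure D1:**
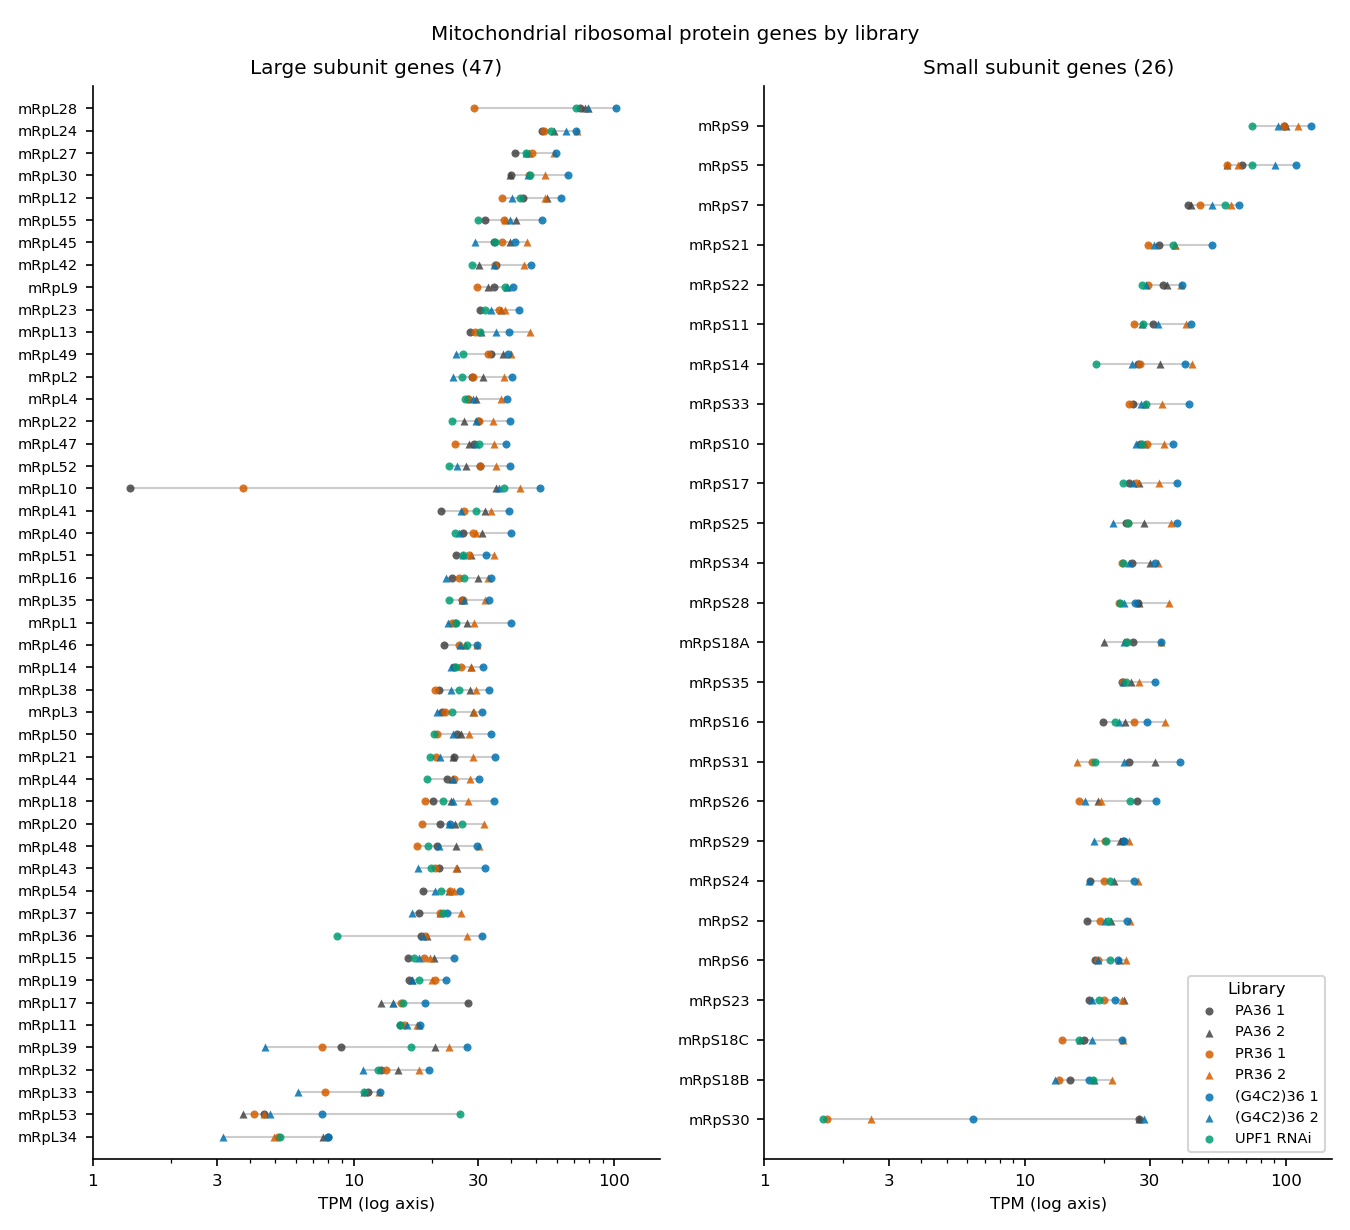
TPM (log axis) of each of the 73 members in the 7 libraries, with large subunit genes on the left and small subunit genes on the right, ordered by mean; each point is 1 library and each grey line spans the lowest to the highest. Most members sit in a narrow band between 20 and 50 TPM, and mRpL10, mRpS30, mRpL53 and mRpL39 have the widest lines.

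Most members varied modestly between libraries. The spread from the lowest to the highest library was 0.70 on the log2(TPM + 1) scale in the median member, against 0.68 for genes tested in the same level range. The spread from the lowest to the highest library was above 1 in 10 members (13.7%), against 29.5% of all genes tested and 22.6% of the 6380 genes tested whose mean lay within the members' range. The narrowest was mRpL11, related to the bacterial protein of the factor-binding stalk base, with a highest-to-lowest ratio of 1.198. The widest was mRpL10, the protein that anchors the stalk, with a ratio of 37.2. The median member differed between replicates of a genotype by 0.33 on the log2 scale, close to the 0.30 of genes in the same level range. The 10 wide members were mRpL10, mRpS30, mRpL53, mRpL39, mRpL28, mRpL36, mRpS31, mRpS14, mRpL34 and mRpL17. The spread of mRpL53 also rests on the split of reads with CG33155.

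The members' total differed more between replicates of PR36 and of (G4C2)36 than between the genotypes' means. Their summed TPM was 1957 and 2152 in PA36, 1868 and 2458 in PR36, 2736 and 2004 in (G4C2)36 and 1967 in UPF1 RNAi. The replicates of PR36 lay on both sides of the PA36 libraries, those of (G4C2)36 lay above and between them, and the UPF1 RNAi sum lay between them. As a share of all listed TPM, members took 0.256% and 0.288% in PA36, 0.251% and 0.299% in PR36, 0.312% and 0.260% in (G4C2)36 and 0.276% in UPF1 RNAi. Of the 73 members, 48 were highest in (G4C2)36 replicate 1 and 20 in PR36 replicate 2. Of all genes tested, 42.9% were highest in the first of these libraries and 18.1% in the second.

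The same libraries were high for genes in general. The median member lay above its own 7-library mean by 0.34 on the log2 scale in (G4C2)36 replicate 1 and by 0.20 in PR36 replicate 2, and the median of all genes tested by 0.23 and 0.12. In the UPF1 RNAi library the median member was at -0.11 and the median gene at 0.02. In PR36 replicate 1 the median member was at -0.13 and the median gene at -0.02. That gap was similar in size to the one in (G4C2)36 replicate 1 but opposite in sign. The libraries with many heat shock transcripts, PA36 replicate 1 and PR36 replicate 1, both had low member medians (-0.14 and -0.13). (G4C2)36 replicate 2 was as low (-0.12) with a heat shock sum of 484 TPM. The median of all genes tested was equally low in PA36 replicate 1 (-0.14) and (G4C2)36 replicate 2 (-0.12). The part of heat shock in these levels was not tested.

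**Figure D2:**
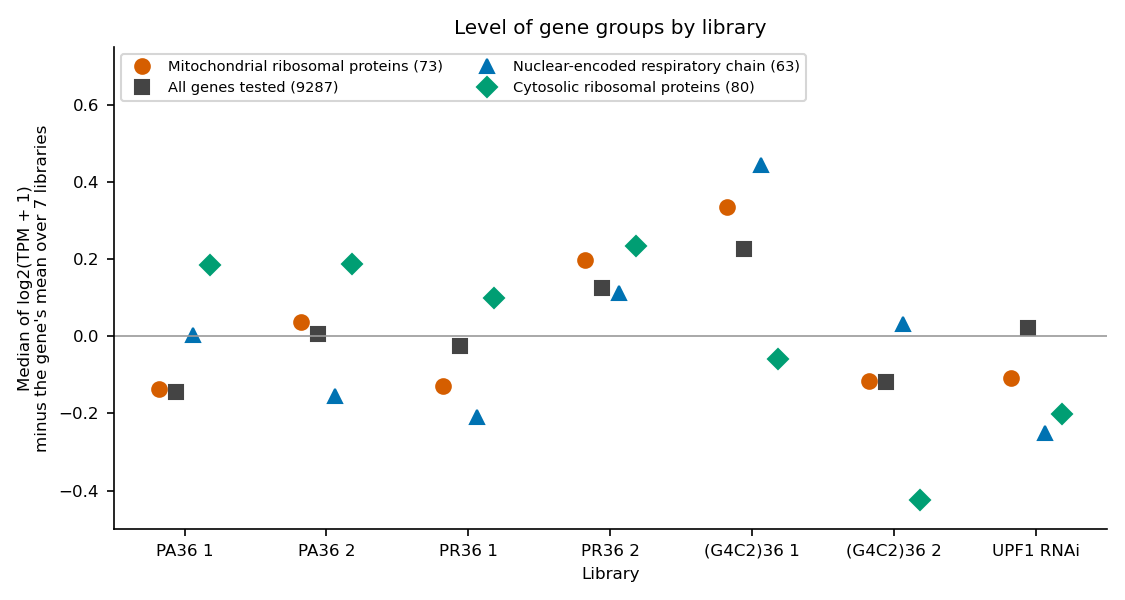
Median over each gene group of log2(TPM + 1) minus the gene's mean over 7 libraries (vertical axis), by library (horizontal axis), for the members, all genes tested, nuclear-encoded respiratory chain genes and cytosolic ribosomal protein genes. Members lie near all genes tested, from -0.14 in PA36 replicate 1 to 0.34 in (G4C2)36 replicate 1, and cytosolic ribosomal protein genes take another course, with their lowest median in (G4C2)36 replicate 2.

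The balance between the subunits varied little in these libraries. Summed TPM of large subunit genes divided by that of small subunit genes was 1.57 and 1.69 in PA36, 1.65 and 1.71 in PR36, 1.68 and 1.60 in (G4C2)36 and 1.72 in UPF1 RNAi. The values of PR36 overlapped those of PA36, those of (G4C2)36 lay within them, and UPF1 RNAi had the highest value. The UPF1 RNAi sums include mRpL53 at 25.6 TPM, against 3.77 to 7.60 TPM in the other libraries. They also include mRpS30 at 1.67 TPM, against 27.4 and 27.3 TPM in PA36 and 1.74 and 2.57 in PR36. With subunits assigned by symbol, both genes raise the ratio in UPF1 RNAi, and its value without them is not given. By symbol mRpS30 and mRpS18A count as small subunit genes, although their mammalian counterparts sit in the large subunit. Counted as a large subunit gene, mRpS30 would lower the UPF1 RNAi ratio instead. No test of the ratio was made.

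The first comparison asks which members the proline-arginine repeat changed relative to PA36. In limma on log2(TPM + 1), a gene counts as called when its Benjamini-Hochberg adjusted p over all genes tested is below 0.05. In PR36 against PA36, 0 of 73 members were called, and 0.194% of all genes tested were (18 genes). At an unadjusted p below 0.05 there were 2 members, mRpS30 and mRpS31, and 315 of the 9287 genes tested. The fold change was within 0.5 of 0 on the log2 scale in 68 members, and its 95% confidence interval lay within 1 of 0 in 62. Of the 9287 genes tested, 8122 and 6368 met these bounds. The median member was at 0.07 and the median gene at 0.13, so that members stood at -0.05 relative to all genes. Above 0 were 57 members and 6735 of the 9287 genes tested. The members' own median turned to -0.05 and -0.06 with median-of-ratios and quantile scaling, and to -0.07 without PR36 replicate 2. Without both heat shock libraries it was 0.21, against 0.12 for all genes. The large and small subunits had medians of 0.07 and 0.08.

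The second comparison asks the same of the GGGGCC repeat RNA. In (G4C2)36 against PA36, 0 of 73 members were called by limma, beside 0.388% of all genes tested (36 genes), and 1 member, mRpS5, had an unadjusted p below 0.05, as did 627 of the 9287 genes. The fold change was within 0.5 of 0 in 69 members and its interval within 1 of 0 in 60. Of the 9287 genes tested, 7708 and 6035 met these bounds. The median was 0.16 over members and 0.13 over all genes tested. It was 0.18 in the large and 0.12 in the small subunit, and 0.03 and 0.005 over all members with median-of-ratios and quantile scaling. The median depends on which (G4C2)36 library is kept: it was -0.04 without (G4C2)36 replicate 1 and 0.40 without replicate 2. Without both heat shock libraries it was 0.06, against 0.04 for all genes. Transcripts of fat body and yolk proteins, 6 genes above 0 in every library, took 8.57% and 16.8% of listed TPM in (G4C2)36 against 9.998% and 5.21% in PA36, and their part in the members' levels was not tested.

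The third comparison asks the same of RNAi against the decay factor Upf1. In UPF1 RNAi against PA36, 1 of 73 members was called by limma, mRpL53, which was higher, beside 0.625% of all genes tested in either direction (58 genes) and 0.215% higher (20 genes). At an unadjusted p below 0.05 there were 3 members and 594 of the 9287 genes. Over all members the median was -0.07, against 0.10 for all genes tested, a difference of -0.17. Below 0 were 45 members and 3511 of the 9287 genes. Without both heat shock libraries the medians were -0.14 and 0.03. Mitochondria-specific members (29 genes) had a lower median than members with bacterial counterparts (44 genes) in each comparison with PA36. The medians were 0.06 against 0.14 in PR36, 0.13 against 0.21 in (G4C2)36 and -0.18 against -0.03 in UPF1 RNAi. These comparisons share the PA36 libraries, and the order did not hold throughout without them. The class medians were -0.03 against -0.05 for PR36 against (G4C2)36 and 0.21 against 0.12 for PR36 against UPF1 RNAi. For (G4C2)36 against UPF1 RNAi they were 0.209 against 0.214. The difference between the classes was not tested. In UPF1 RNAi against PA36 the fold change was within 0.5 of 0 in 67 members and its interval within 1 of 0 in 46. Of the 9287 genes tested, 7192 and 3904 met these bounds. The counts of members and of all genes were lower than in PR36 and (G4C2)36 against PA36, and UPF1 RNAi has 1 library. That lone library was assumed to vary like those of the other genotypes. Relative to all genes the median stayed at -0.17 to -0.19 under the 3 other scalings of the libraries, while the members' own median turned to 0.02 with the listed TPM rescaled to the same sum.

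Between the other genotypes, 0 of 73 members were called by limma in PR36 against (G4C2)36 (0.237% of all genes tested), 0 in PR36 against UPF1 RNAi (0.431%) and 0 in (G4C2)36 against UPF1 RNAi (0.581%). At an unadjusted p below 0.05 there were 3, 2 and 3 members and 488, 569 and 696 of all genes tested. The medians were -0.04, 0.15 and 0.21. These contrasts test the differences between the effects of the transgenes, and the 3 comparisons with PA36 share its libraries.

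**Figure D3:**
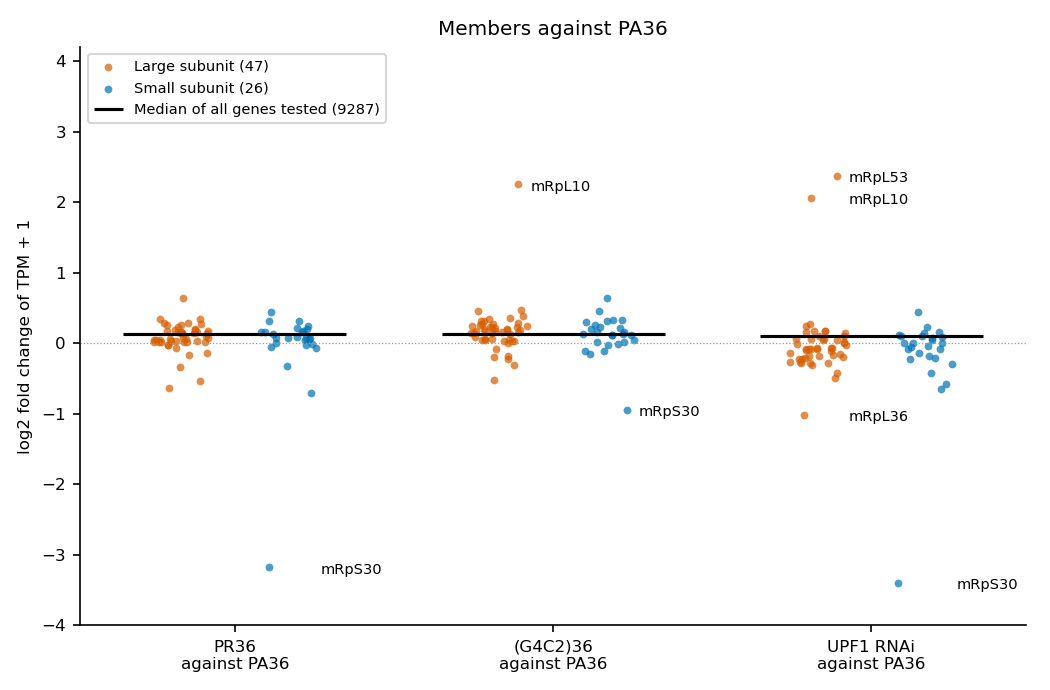
Log2 fold change of TPM + 1 against PA36 (vertical axis) for each member in PR36, (G4C2)36 and UPF1 RNAi (horizontal axis), large subunit genes on the left and small subunit genes on the right of each pair; the black line is the median of all genes tested. Most points lie within 0.5 of 0, and the named points beyond 0.9 are mRpL10, mRpL53, mRpL36 and mRpS30, of which mRpL53 in UPF1 RNAi was called.

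The called member, mRpL53, encodes a large subunit protein found in mitochondria only. It lies at 2R:13954195-13955664 on the plus strand (BDGP6) and has 3 exons of 829 bases in all. It was at 4.52 and 3.77 TPM in PA36, 4.15 and 4.52 in PR36, 7.60 and 4.79 in (G4C2)36 and 25.6 in UPF1 RNAi. The UPF1 RNAi library stood above all 6 others, and PA36 and PR36 overlapped. The log2 fold change against PA36 was 2.37 (SE 0.36, 95% confidence interval 1.54 to 3.21, adjusted p = 0.044, limma). Against PR36 and (G4C2)36 the adjusted p in limma was 0.059 and 0.095. The call against PA36 was lost with smaller pseudocounts, other filters, the replicate block or only the 2 groups fitted. It was also lost without any 1 library of PA36 or (G4C2)36.

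In the reference annotation, all 3 exons of mRpL53 are also those of a transcript of CG33155 (FBtr0100452), a gene on the same strand. The 2 entries have the same exons, so reads cannot tell them apart. That transcript had 34.6 and 39.4 TPM in PA36, 40.7 and 48.6 in PR36, 53.2 and 39.0 in (G4C2)36 and 13.0 in UPF1 RNAi, the lowest in the library where mRpL53 was highest. The sum of the 2 entries was 39.2 and 43.2 TPM in PA36, 44.9 and 53.1 in PR36, 60.8 and 43.8 in (G4C2)36 and 38.5 in UPF1 RNAi. With the pair counted as 1 gene, a choice made after the values were seen, the difference between UPF1 RNAi and PA36 was -0.09 on the log2 scale (adjusted p = 0.99, limma). No member was then called in that comparison.

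**Figure D4:**
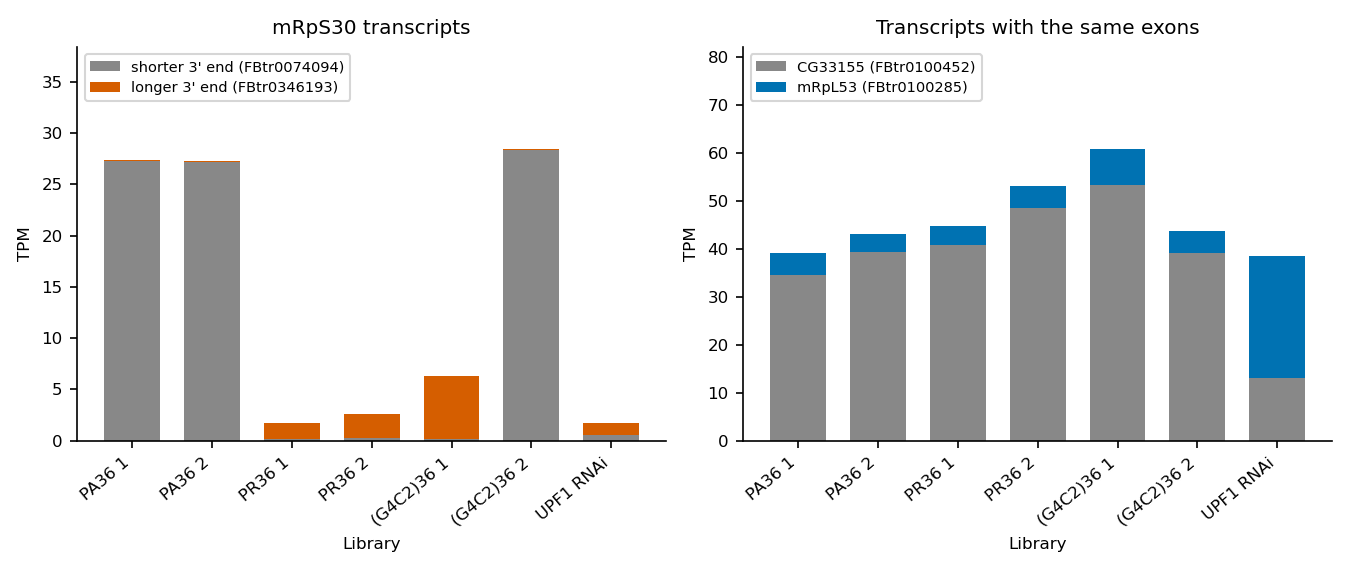
TPM (vertical axis, bars from 0) by library of the 2 listed mRpS30 transcripts (left) and of mRpL53 with the CG33155 transcript that has the same exons (right), stacked. The shorter mRpS30 transcript fills the bars of both PA36 libraries and of (G4C2)36 replicate 2 and is nearly absent elsewhere; on the right the UPF1 RNAi bar is split differently, at a total of 38.5 TPM beside 39.2 TPM in PA36 replicate 1.

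The member with the lowest fold change in each comparison with PA36 was mRpS30, the longest member. Its counterpart sits in the large subunit of the mammalian mitochondrial ribosome despite its name. The gene lies at X:15786047-15788288 on the plus strand and shares no exonic base with another gene. It was at 27.4 and 27.3 TPM in PA36, 1.74 and 2.57 in PR36, 6.32 and 28.5 in (G4C2)36 and 1.67 in UPF1 RNAi. Both PR36 libraries, the UPF1 RNAi library and (G4C2)36 replicate 1 lay far below PA36, and (G4C2)36 replicate 2 lay above it.

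The log2 fold change of mRpS30 was -3.18 in PR36 (SE 0.59, adjusted p = 0.21) and -3.41 in UPF1 RNAi (SE 0.72, adjusted p = 0.17), with neither called by limma. In (G4C2)36 it was -0.95 (SE 0.59, adjusted p = 0.86). The replicates that differed most for this gene were those of (G4C2)36. Without (G4C2)36 replicate 1 both lower values were called (adjusted p 0.034 in PR36 and 0.024 in UPF1 RNAi), and likewise without replicate 2 (0.039 and 0.033). Without the 2 heat shock libraries the fold changes were -2.99 in PR36 and -3.40 in UPF1 RNAi, with 1 library left in PA36 and in PR36.

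The 2 listed mRpS30 transcripts share their start and differ at the 3′ end, which lies 249 bases further in the longer one. The shorter one lies wholly within the longer, with 1829 against 2078 exonic bases, so it has no exonic base of its own. The values of the 2 forms therefore rest on how shared reads were assigned. The shorter one, FBtr0074094, was at 27.3 and 27.2 TPM in PA36, 0.21 and 0.22 in PR36, 0.13 and 28.4 in (G4C2)36 and 0.54 in UPF1 RNAi. The longer one, FBtr0346193, was at 0.08 and 0.10 TPM in PA36, 1.53 and 2.35 in PR36, 6.18 and 0.04 in (G4C2)36 and 1.14 in UPF1 RNAi. By this assignment the short form made up nearly the whole gene in 3 libraries, and the long form was the larger in the other 4. In the libraries where the long form led, the gene's sum was also low.

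Another gene with such a change of leading transcript was mRpS7, a small subunit protein whose bacterial counterpart helps to organize the head of the subunit. Its shorter transcript also lies wholly within the longer one, with 789 against 917 exonic bases. The shorter one led in 6 libraries with 42.0 to 66.2 TPM. It was at 2.41 TPM in PA36 replicate 2, where the longer one was at 41.0 TPM against at most 0.09 elsewhere. The gene's sum hardly differed between the PA36 replicates, at 42.1 and 43.4 TPM. Of the 18 members with several listed transcripts, mRpS30 and mRpS7 changed their leading transcript between libraries in the assigned values and the other 16 did not. In 12 of the 18 the transcript with the highest mean held at least 90% of the gene's TPM in every library.

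The largest difference between replicates was that of mRpL10, related to the bacterial protein that carries the L12 stalk (2L:203779-204782, plus strand). It was at 1.39 and 35.1 TPM in PA36, 3.77 and 43.3 in PR36, 51.8 and 36.1 in (G4C2)36 and 37.8 in UPF1 RNAi. The 2 low libraries were the ones with high heat shock transcripts, and the other 5 ranged from 35.1 to 51.8 TPM. The part of heat shock in this gene's level was not tested. The log2 fold changes against PA36 were 0.65, 2.25 and 2.06 in PR36, (G4C2)36 and UPF1 RNAi, with SEs of 1.36 to 1.67 and none called by limma. Without PA36 replicate 1 the PR36 value turned to -1.31, and those of (G4C2)36 and UPF1 RNAi were 0.29 and 0.10. Without both low libraries the PR36 value was 0.29, and the others were again 0.29 and 0.10. An exon of mRpL10 overlaps CG11617 on the opposite strand by 40 bases. CG11617 was also lowest in PA36 replicate 1 (4.97 TPM) and PR36 replicate 1 (4.58 TPM), but by far less. It was at 5.30 to 9.77 TPM in the other 5 libraries. mRpL12, the stalk protein itself, was at 44.4 and 54.9 TPM in PA36, 37.0 and 54.2 in PR36, 62.6 and 40.4 in (G4C2)36 and 43.6 in UPF1 RNAi. For mRpL12, replicate 1 was the lower library in PA36 and in PR36, and (G4C2)36 replicate 2 and UPF1 RNAi were below PA36 replicate 1. The part of heat shock in its level was not tested either.

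mRpL39, a large subunit protein of mitochondria only (3L:14997981-14999666, minus strand), also parted its replicates. It was at 8.97 and 20.6 TPM in PA36, 7.55 and 23.1 in PR36, 27.3 and 4.57 in (G4C2)36 and 16.7 in UPF1 RNAi. Each genotype with 2 libraries had a low and a high one, so no genotype stood apart. In mRpL28 (2L:4973976-4975316, plus strand) PR36 replicate 1 was low by itself: the gene was at 73.6 and 77.0 TPM in PA36, 28.9 and 79.3 in PR36, 102 and 79.1 in (G4C2)36 and 71.2 in UPF1 RNAi. Its fold change in PR36 was -0.64 (SE 0.43) and turned to 0.07 without that library.

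Among the other large subunit members at the ends of the comparisons, mRpL36, related to a short zinc-binding bacterial protein, was at 18.1 and 19.1 TPM in PA36, 18.8 and 27.2 in PR36, 31.2 and 18.5 in (G4C2)36 and 8.64 in UPF1 RNAi. UPF1 RNAi was the lowest library by more than 2-fold (log2 fold change -1.02, SE 0.38, adjusted p = 0.66, limma). mRpL30, related to bacterial L30, was at 40.0 and 39.8 TPM in PA36, 47.1 and 54.4 in PR36, 66.6 and 46.5 in (G4C2)36 and 47.3 in UPF1 RNAi, above PA36 in every other library. Its fold changes of 0.34, 0.47 and 0.24 did not pass the test, and the value in (G4C2)36 was 0.22 without replicate 1 and 0.72 without replicate 2 of that genotype. mRpL34 had lower values than PA36 in 4 of the 5 other libraries, at 7.99 and 7.61 TPM in PA36, 5.12 and 4.97 in PR36, 7.97 and 3.17 in (G4C2)36 and 5.23 in UPF1 RNAi. Its fold changes were -0.54, -0.52 and -0.50, none called. For mRpL33, the fold change in (G4C2)36 was -0.31 (SE 0.37), with 12.6 and 6.12 TPM in that genotype against 11.4 and 10.98 in PA36. mRpL17, which lines the exit of the peptide tunnel in bacteria, was at 27.5 TPM in PA36 replicate 1 and between 12.8 and 18.7 TPM in the other 6 libraries.

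Among the small subunit members, mRpS5 was at 67.6 and 59.3 TPM in PA36, 59.2 and 65.3 in PR36, 109 and 91.0 in (G4C2)36 and 74.2 in UPF1 RNAi. Both (G4C2)36 libraries stood above the other 5, with a log2 fold change of 0.65 against PA36 (SE 0.21, unadjusted p = 0.016, adjusted p = 0.54, limma). Its gene identifier is not in the reference annotation, so its overlap with other genes is not given. The annotation does hold its 3 listed transcripts, on 3L and the plus strand. mRpS31, a protein of mitochondria only, was at 25.04 and 31.5 TPM in PA36, 18.0 and 15.8 in PR36, 39.1 and 23.9 in (G4C2)36 and 18.5 in UPF1 RNAi. Both PR36 libraries and the UPF1 RNAi library lay below PA36, with fold changes of -0.70 (SE 0.29, unadjusted p = 0.043, adjusted p = 1.00, limma) and -0.58 (SE 0.35). mRpS14, a protein of the subunit's head in bacteria, was lowest in UPF1 RNAi at 18.7 TPM, against 25.7 to 43.6 TPM in the other 6 libraries (log2 fold change -0.65, SE 0.39). mRpS16 had a fold change of 0.44 in PR36 (SE 0.25), with 26.2 and 34.5 TPM against 19.9 and 24.2 in PA36, and 0.25 to 0.63 with a library left out. mRpS7 had one of 0.44 in UPF1 RNAi (SE 0.28), with 58.2 against 42.1 and 43.4 TPM. mRpS18A, whose counterpart also sits in the mammalian large subunit, was at 25.9 and 20.02 TPM in PA36, 24.3 and 33.2 in PR36, 33.1 and 24.0 in (G4C2)36 and 24.7 in UPF1 RNAi, with all genotypes overlapping.

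The members lie on every major chromosome arm, with 12 on 2L, 12 on 2R, 16 on 3L, 21 on 3R and 11 on X in the reference annotation. These counts cover the 72 members found by identifier and leave out mRpS5. Exons of 43 members overlap those of another gene, in 42 of them a gene on the opposite strand. Whether the authors' values use strand is not given in the sources used here, so reads of such partners may not be separated. The 29 members without overlap had medians of 0.07, 0.15 and -0.03 in the 3 comparisons with PA36, close to those of the 43 with overlap (0.08, 0.18 and -0.08).

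Genes that work with the mitochondrial ribosome were described from fixed lists. Of 10 tested genes of mitochondrial translation, 0 were called by limma in any comparison with PA36, with 0 at an unadjusted p below 0.05 and medians of 0.10, 0.13 and -0.01 in PR36, (G4C2)36 and UPF1 RNAi. They include tko and bonsai, which encode small subunit proteins under other names. tko was at 28.3 and 40.4 TPM in PA36, 34.1 and 41.8 in PR36, 50.6 and 29.4 in (G4C2)36 and 32.9 in UPF1 RNAi, and bonsai was at 21.6 to 32.5 TPM. As in most members, (G4C2)36 replicate 1 was highest for both. The ends of the list were mIF2, an initiation factor, at 0.56 in UPF1 RNAi (SE 0.53), mRF1, a release factor, at -0.45 in (G4C2)36 (SE 0.35) and mEFG1, an elongation factor, at -0.34 in UPF1 RNAi (SE 0.29).

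None was called either among 15 mitochondrial aminoacyl-tRNA synthetases, 16 genes of mitochondrial transcription and RNA handling, 4 of mitochondrial DNA maintenance, 13 of protein import and 9 of the mitochondrial stress response. Unadjusted p below 0.05 came to at most 2 genes of a list in a comparison. Tim17b, of the inner membrane import channel that the ribosomal proteins pass, was at 208 and 197 TPM in PA36, 76.2 and 55.8 in PR36, 258 and 197 in (G4C2)36 and 218 in UPF1 RNAi. Both PR36 libraries lay far below the other 5 (log2 fold change -1.62, SE 0.24, adjusted p = 0.084, limma). mTerf3, a factor of mitochondrial transcription and ribosome assembly, was at 5.00 TPM in UPF1 RNAi against 10.8 to 16.8 TPM elsewhere (log2 fold change -1.22, SE 0.35, adjusted p = 0.40, limma).

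The products of the mitochondrial ribosome join nuclear-encoded subunits. Of 63 such tested genes of the respiratory chain and ATP synthase, 0 were called in PR36 and 0 in (G4C2)36, with 1 and 5 at an unadjusted p below 0.05. In UPF1 RNAi 1 was called, ND-39 of complex I, which fell by 3.20 on the log2 scale (SE 0.43, adjusted p = 0.032, limma). ND-39 was at 335 and 339 TPM in PA36, 290 and 350 in PR36, 141 and 309 in (G4C2)36 and 35.7 in UPF1 RNAi. The highest fold change of these genes was that of ND-49 in (G4C2)36, at 2.24 (SE 0.38, adjusted p = 0.10, limma). ND-49 was at 57.1 and 58.3 TPM in PA36, 84.8 and 171 in PR36, 364 and 210 in (G4C2)36 and 247 in UPF1 RNAi. The list's medians were 0.02, 0.32 and -0.17. In (G4C2)36, the 6 muscle markers had a summed TPM of 5211 and 4735 against 2940 and 2387 in PA36, with fold changes above 0 in 6 of 6 and 0 called by limma (5 at an unadjusted p below 0.05). None was at 0 in any library, and their part in the respiratory chain or member levels was not tested.

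The cytosolic ribosome, made of other proteins, is given for comparison. Medians of its 80 tested genes were -0.02, -0.42 and -0.38 in the comparisons of PR36, (G4C2)36 and UPF1 RNAi with PA36, beside 0.07, 0.16 and -0.07 for the members. They took 21.3% and 21.8% of listed TPM in PA36, 20.4% and 20.6% in PR36, 15.6% and 13.6% in (G4C2)36 and 17.6% in UPF1 RNAi. Both (G4C2)36 libraries and the UPF1 RNAi library were below all PA36 and PR36 libraries. Against PA36, 0 of them were called by limma in PR36 and 0 in (G4C2)36 (0 and 21 at an unadjusted p below 0.05), and 1 was called in UPF1 RNAi, RpL34a, which was lower (log2 fold change -2.37, SE 0.26, adjusted p = 0.014, limma). Near-absence in 1 library also occurred here. RpS14a was at 7.66 TPM in (G4C2)36 replicate 2 against 1806 to 2154 TPM elsewhere. RpS21 was at 9.44 TPM in PR36 replicate 1 against 354 to 522 TPM elsewhere. Whether the medians of these lists differ from those of the members was not tested.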

How the data were processed

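RNA of whole fly heads was sequenced, and the authors deposited 1 table of TPM per transcript. Per the submitters' processing notes, bcl2fastq, HISAT2 2.1 and HISAT were used with the build BDGP6. Not given in the sources used here are the program behind the TPM, its annotation and whether it used strand. The header has 10 names for lines of 11 cells. Assigning names from left to right gave 7 named libraries and left 1 unnamed value column, which was set aside. The planned design spoke of all libraries, and the same model was fitted on these 7. Every library's values rest on this reading.

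Transcripts were summed per gene. Genes averaging 1 TPM or more were tested on log2(TPM + 1), a scale that understates changes of low genes, with limma 3.58.1 in R 4.3.3 (trend, 1 coefficient per genotype, two-sided, 3 residual and 4.1 prior degrees of freedom, 6 contrasts). The model was tested on simulated data. P-values were adjusted over all genes tested.

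The members, lists and alternatives were chosen with earlier results of these data known. Named members are those called, the 3 highest and 3 lowest in fold change in each comparison with PA36 and in level, the 3 with the largest replicate difference, and mRpS18A and mRpS30. Of the other lists, the called genes and only some of the ends are named. mRpL17, mRpL11, mRpL12, tko, bonsai and Upf1 were named after their values were seen. A member counts as having a bacterial counterpart by its number in the ribosomal protein nomenclature. Positions are 1-based, from Ensembl release 115 (BDGP6), which held 72 members by identifier. Sequences of promoters and proteins were not analysed here. The reading of the table found 0 transcripts of the mitochondrial genome. Alternatives covered the pseudocount, filter, scaling, limma options, samples fitted, replicate block and libraries left out. Tables were joined in Python 3.11.15 (numpy 2.4.6, pandas 2.3.3, SciPy 1.17.1) and drawn with matplotlib 3.10.9.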

Additional observations from a re-analysis of the deposited data

How the results depend on the processing

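Of the members' counts and medians under the alternatives, 226 stayed and 32 moved. A count stayed only if unchanged. A median stayed if it shifted by less than 0.238, the SD of the members' library medians within a genotype. That bound is larger than each of the medians themselves, so a median could change its sign and still count as stayed. In PR36 against PA36 the count of called members was 1 (mRpS30) with the replicate block, without PA36 replicate 1 and PR36 replicate 1, and with only the 2 groups compared, and 0 to 1 with a library left out. In (G4C2)36 it was 0 with each library left out. In UPF1 RNAi against PA36 it was 0 with a pseudocount of 0.1 or 0.5, with no filter, with a mean of at least 5 TPM, with the replicate block, with same-exon transcripts together, with only the 2 groups compared and among members without exon overlap. It was 2 (mRpL53 and mRpS30) without PA36 replicate 1 and PR36 replicate 1, and 0 to 2 with a library left out. The adjusted p of mRpL53 in limma was 0.054 to 0.19 where its call was lost with the gene taken alone. In PR36 against (G4C2)36 the count was 1 without PA36 replicate 1 and PR36 replicate 1, and 0 to 1 with a library left out. In PR36 against UPF1 RNAi it was 1 (mRpL53) with median-of-ratios, quantile or same-sum scaling, with the robust option and without that pair of libraries, and 0 to 1 with a library left out. In (G4C2)36 against UPF1 RNAi it was 1 with quantile or same-sum scaling and the robust option, 2 without the pair and with only the 2 groups compared, and 0 to 2 with a library left out. The causes were not tested.

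With a library left out, the members' median ranged from -0.07 to 0.27 in PR36 against PA36, -0.038 to 0.40 in (G4C2)36, -0.14 to 0.01 in UPF1 RNAi, -0.29 to 0.16 in PR36 against (G4C2)36, -0.01 to 0.30 in PR36 against UPF1 RNAi and -0.038 to 0.45 in (G4C2)36 against UPF1 RNAi. In PR36 against PA36 it was -0.05 and -0.06 with median-of-ratios and quantile scaling, and 0.21 without PA36 replicate 1 and PR36 replicate 1. A fit that leaves 1 library in a genotype assumes that it varies like the others. Without both heat shock libraries only the (G4C2)36 pair gives the spread, so calls of that fit rest on this assumption.

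Among the named members' fold changes, 8 values turned their direction. mRpL53 in UPF1 RNAi was -0.091 with same-exon transcripts together. In PR36, mRpL28 was 0.042 without the pair and -1.35 to 0.075 with a library left out (above 0 without PR36 replicate 1). mRpL10 was -1.31 to 2.60 in PR36 (-1.31 without PA36 replicate 1, -0.96 without PR36 replicate 2). In (G4C2)36, mRpS30 was -1.95 to 0.055 (above 0 without replicate 1), mRpL34 -1.08 to 0.028 and mRpL33 -0.77 to 0.16 (both above 0 without replicate 2).

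Replicate numbers were not taken to pair the samples, since no label says that they do and not every pair of genotypes correlated: replicate differences over all genes tested correlated at 0.10 between PA36 and PR36 and at -0.07 and -0.08 for the other pairs. Replicate 1 of both PA36 and PR36 is the library with the high heat shock sum. With the replicate block, all genes called higher and lower were 17 and 16 in PR36 against PA36, 40 and 17 in (G4C2)36 and 25 and 41 in UPF1 RNAi, against 10 and 8, 24 and 12, and 20 and 38 without it. Without the 2 heat shock libraries they were 110 and 81, 195 and 87, and 129 and 110.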
